A study of Mus musculus with 24 samples.

Results

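The 10 genes described here encode proteins of blood clotting and of its restraint, and were chosen by symbol: F3 and F7, which start the extrinsic pathway, F9, F10, F5 and F2 of the later cascade, the anticoagulants Serpinc1, Proc and Thbd, and Plg of clot removal. All 10 were listed in each of 3 tables of FPKM, the fragments of a gene per kilobase of its length, relative to the total of its library, among 31053 genes in the hepatocyte table, 25876 in the cholangiocyte table and 20729 in the Smart-Seq table. The study grew organoids from the livers of wild-type BALB/c mice aged 6 to 8 weeks, and asked how hepatocyte and cholangiocyte organoids keep their features over passages. Its 24 libraries comprised 3 of primary hepatocytes (Pri-Hep), 9 of hepatocyte organoids (Hep-Orgs, 3 each from passages P1, P5 and P10), 9 of organoids from cholangiocytes (Cho-Orgs, 3 each from P0, P5 and P10), and 3 single libraries of P0 Hep-Orgs with a grape-like, an intermediate or a round-like shape.

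Pri-Hep and Hep-Orgs came from liver cells depleted of cells with the epithelial surface protein EpCAM, and the passaged Hep-Orgs were kept in Matrigel in a hepatocyte medium with dexamethasone, a glucocorticoid, and DAPT, which blocks Notch signalling. Cho-Orgs came from EpCAM-positive cells in a cholangiocyte medium. The Smart-Seq organoids were picked by shape at P0. The study describes these shapes in its initial hepatocyte medium, before it added DAPT and dexamethasone. RNA of the picked organoids was amplified as full-length cDNA without molecular identifiers. The study's legends number the libraries by 3 mice, while its methods describe each replicate as a separate culture. Whether same-numbered libraries of different groups share a mouse is left unsettled by these sources, and p-values measure the spread between cultures.

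The Pri-Hep libraries went against their label, and the Hep-Orgs libraries of the same table had like marker levels. Alb, the main plasma protein of hepatocytes, was at 112 ± 7.99 FPKM in them (SD, n = 3) and Asgr1, a hepatocyte surface receptor, at 0.0117 ± 0.0202 FPKM, whereas the cholangiocyte keratin Krt19 was at 237 ± 6.66 FPKM and Epcam, the protein used for depletion, at 269 ± 5.40 FPKM. In the Hep-Orgs of the same table, mean Alb was 109 to 115 FPKM and mean Krt19 239 to 240 FPKM. The 8 cholangiocyte markers summed to 3911 to 4010 FPKM in the libraries labelled Pri-Hep and the 8 hepatocyte markers to 547 to 581 FPKM. In the Hep-Orgs libraries these sums were 3850 to 4070 and 560 to 607 FPKM. Every comparison with Pri-Hep below is a comparison with the libraries of that label, and comparisons among Hep-Orgs alone are given beside them. The Hep-Orgs of this table are likewise named by their label, so comparisons among them carry the same limit. Marker genes of other cell types were high in the Smart-Seq libraries, most of all in the grape-like one, in which the 8 macrophage markers summed to 8787 FPKM, the 8 stellate and mesenchymal markers to 1362 FPKM and the 8 endothelial markers to 75.7 FPKM. The hepatocyte table held 14068906 to 27160365 fragments per library, with 37467796 to 39926192 in the Cho-Orgs libraries and 40035109 to 40375837 in those made by Smart-Seq.

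Clotting begins when tissue factor, the membrane protein encoded by F3, meets factor VII of the plasma. Their complex activates factors IX and X, factor X with its cofactor factor V turns prothrombin into thrombin, and thrombin cuts fibrinogen into fibrin. Antithrombin inhibits thrombin and factor Xa, thrombomodulin on the vessel wall redirects thrombin to activate protein C, and plasmin, made from plasminogen, dissolves fibrin. Hepatocytes are the main source of most of the plasma proteins among these, whereas tissue factor and thrombomodulin are cell-surface proteins made elsewhere, tissue factor in many epithelia and thrombomodulin above all in endothelium.

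The starts of 7 of the 10 genes were found in the RefSeq promoter table of build GRCm38.p6, which gives 250 bases before and 50 after each gene's start. The promoters of F3, F9 and F2 are shown because F3 was kept in passaged Cho-Orgs while F9 and F2 were lost or nearly lost from them. Capitals mark matches to 5 short motifs searched on both strands: GTTAAT (part of the site of the hepatocyte factor HNF1), CAAAGT (core of HNF4 sites), TTGCNNAAT (C/EBP), TGANTCA (AP-1) and GGGCGG (GC box of Sp1).
F3 is shown for chr3:121723287-121723586, + strand.
F3 promoter: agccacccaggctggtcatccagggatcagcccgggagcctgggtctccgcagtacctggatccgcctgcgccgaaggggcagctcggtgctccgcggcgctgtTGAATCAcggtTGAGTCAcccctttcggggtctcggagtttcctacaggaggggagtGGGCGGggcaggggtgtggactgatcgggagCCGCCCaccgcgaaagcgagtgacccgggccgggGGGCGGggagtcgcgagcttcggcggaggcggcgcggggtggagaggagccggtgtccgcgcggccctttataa
F9 is shown for chrX:59999214-59999513, + strand.
F9 promoter: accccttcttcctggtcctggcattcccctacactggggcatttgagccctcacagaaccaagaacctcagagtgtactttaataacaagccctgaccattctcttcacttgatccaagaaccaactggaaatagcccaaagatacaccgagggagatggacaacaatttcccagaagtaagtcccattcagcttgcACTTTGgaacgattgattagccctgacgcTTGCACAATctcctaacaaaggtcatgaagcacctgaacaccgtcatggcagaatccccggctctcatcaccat
F2 is shown for chr2:91636408-91636707, - strand.
F2 promoter: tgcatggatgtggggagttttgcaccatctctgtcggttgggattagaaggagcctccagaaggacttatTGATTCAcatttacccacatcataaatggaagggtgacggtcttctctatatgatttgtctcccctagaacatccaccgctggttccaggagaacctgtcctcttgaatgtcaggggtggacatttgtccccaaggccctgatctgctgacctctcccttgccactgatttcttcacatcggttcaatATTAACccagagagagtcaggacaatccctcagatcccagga
The F3 window held 2 AP-1 matches, which began 146 and 135 bases before the start, and 3 GC boxes, at 89, 58 and 24 bases before it. The F9 window held 1 HNF4 core at 53 bases and 1 C/EBP match at 24 bases before the start, and the F2 window held 1 AP-1 match at 180 bases before it and 1 HNF1 motif 8 bases after it. These distances are from the RefSeq starts. For F2 that start, and the HNF1 motif with it, lies upstream of the gene span given below. F5 held 1 GC box, and the windows of F7, F10 and Serpinc1 held none of these letters. F5, F7, F10 and Serpinc1 were also lower in passaged Cho-Orgs than at P0, so F9 and F2 do not stand for all members that fell. Among all 32851 promoters of this length, 7.10% held the HNF1 motif, 14.4% the HNF4 core, 2.40% the C/EBP motif, 7.81% the AP-1 motif and 35.7% the GC box, and a match here is a run of letters, not a shown binding site.

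By the hepatocyte table's coordinates in mm10, F3 (ENSMUSG00000028128) lies at chr3:121723537-121735048 and F7 (ENSMUSG00000031443) at chr8:13026034-13035809. F10 (ENSMUSG00000031444) lies at chr8:13037308-13056676, 1498 bases after the end of F7 on the same strand. F9 (ENSMUSG00000031138) lies at chrX:59999464-60030759, F5 (ENSMUSG00000026579) at chr1:164151838-164220277 and F2 (ENSMUSG00000027249) at chr2:91625320-91636414. Serpinc1 (ENSMUSG00000026715) lies at chr1:160978585-161005863, Proc (ENSMUSG00000024386) at chr18:32123129-32139570, Thbd (ENSMUSG00000074743) at chr2:148404466-148408188 and Plg (ENSMUSG00000059481) at chr17:12378609-12419384. These spans cover whole genes with their exons and introns.

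In Cho-Orgs the members parted over passages. F3 remained at 58 to 105 FPKM in all 9 libraries and Thbd at about 0.2 to 2 FPKM, whereas the plasma factors made by hepatocytes fell: from P0 to P10, mean F2 went from 39.8 to 0.0745 FPKM and Plg from 63.0 FPKM to 0. Of the 10 members, 8 passed the filter for testing (3 or more libraries at 1 FPKM or more), F7 and Serpinc1 did not, and F9, F10, F5, F2 and Plg passed only with the P0 libraries counted, so that they had to differ and their calls under the filter are no support. With limma on log2(FPKM + 1) and Benjamini-Hochberg adjustment over 11593 genes, 6 members were lower at P5 than at P0 and 1 was higher, against 22.6% and 34% of all genes tested (2621 lower and 3938 higher, or 3449 lower and 3087 higher with median-ratio scaling). From P0 to P10, 6 members were lower and 0 higher, against 31.3% and 41% of all genes (3634 and 4750, or 4163 and 4102 with median-ratio scaling). Proc was thus the 1 member lower at P10 that did not need the P0 libraries to be tested. Genes of all levels, the 22670 above 0 in at least 1 library, were also tested. There 8 of the 10 members were lower at P5 and 8 at P10, both against P0, beside 13.9% and 20.7% of those genes. F7 and F9 were above 0 at P0 alone and could only be lower, so they add no support. Thbd and F3 were the 2 members tested under the filter that were not lower at P10, and 6 members, as after adjustment, were past an unadjusted p of 0.05, against 74.3% of all genes.

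**Figure D1:**
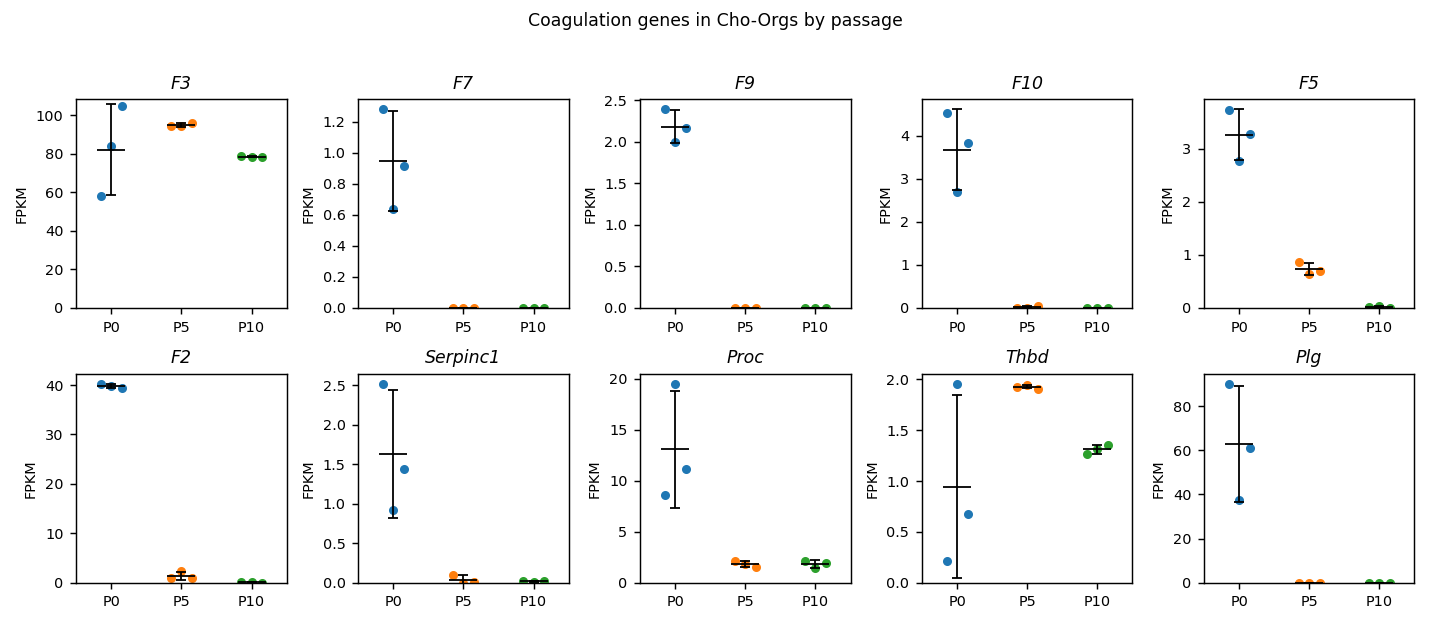
FPKM (vertical axes, from 0) of the 10 genes in the 3 Cho-Orgs libraries at each of P0, P5 and P10 (points, in the order of replicates 1 to 3), with the mean and SD as a bar with whiskers. F3 and Thbd stayed at or above their lowest P0 value at P5 and P10, and F7 and F9 were at 0 in all 6 passaged libraries.

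Tissue factor, F3, was the most abundant member of the passaged Cho-Orgs. At P0 its FPKM was 57.8, 83.8 and 105 in replicates 1, 2 and 3, at P5 94.2, 94.2 and 96.1, and at P10 78.9, 78.5 and 78.1. The P0 libraries were spread around those of both later passages. The P10 libraries all lay below the P5 libraries, as for 4261 of the 11593 genes tested. The log2 fold change on FPKM + 1 was 0.25 (SE 0.16, limma adjusted p = 0.227) at P5 and -0.02 (SE 0.16, adjusted p = 0.903) at P10, both against P0, so that the means differed by less than the spread at P0. At P10 against P5 it was -0.27 (SE 0.16, adjusted p = 0.180) with the error shared with P0, and the same difference had an SE of 0.03 and an adjusted p of 4.4e-05 when only the P5 and P10 libraries were fitted. Which P0 library was left out decided the call: without replicate 3, F3 was 0.44 higher at P5 than at P0 on the log2 scale (adjusted p = 0.0161), and without replicate 1 it was 0.25 lower at P10 than at P0, a log2 fold change of -0.25 (adjusted p = 0.0153).

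Factor VII, the partner of tissue factor, was far lower. F7 was at 1.28, 0.638 and 0.916 FPKM in the P0 libraries, from 47 to 94 fragments each, and at 0 in all 6 libraries of P5 and P10. Taken against a floor of 3 fragments per library, P0 was at least 22.1-fold higher than P5 and at least 21.9-fold higher than P10. F7 failed the filter, and when genes of all levels were tested its log2 fold change was -0.95 (SE 0.10, limma adjusted p = 0.000143 at P10 against P0), where, as above, 20.7% of all genes tested that way were lower. F7 was above 0 at P0 alone, so it could only be lower and this call is no support.

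The factors that make thrombin were all lower after P0. F9, the zymogen activated by factor VIIa, was at 2.39, 2.00 and 2.17 FPKM in the P0 libraries and at 0 in the other 6, which put P0 at least 80.0-fold above P5 and at least 79.2-fold above P10. F10, which forms the protease that cuts prothrombin, was at 4.54, 2.69 and 3.83 FPKM at P0. It was at 0.0388 FPKM or less at P5, from 1 to 4 fragments, and at 0 in all 3 P10 libraries, so that P0 was at least 125-fold above P10.
F5, the cofactor of factor Xa, fell in steps. It was at 3.73, 2.77 and 3.28 FPKM at P0, at 0.862, 0.642 and 0.700 FPKM at P5 and at 0.00967, 0.0328 and 0.00656 FPKM at P10, with no overlap between the passages. Over genes of all levels the log2 fold change was -1.29 (SE 0.09, limma adjusted p = 3.6e-05) at P5 against P0 and -0.77 (SE 0.09, adjusted p = 0.000396) at P10 against P5.
F2, prothrombin, had the least spread relative to its mean at P0, with 40.1, 39.8 and 39.4 FPKM. It fell to 0.924, 2.28 and 0.900 FPKM at P5 and to 0.0736, 0.107 and 0.0428 FPKM at P10, where 4 to 10 fragments stood behind each value. Mean P0 was 29.1-fold above P5 and 534-fold above P10, with log2 fold changes on FPKM + 1, over genes of all levels, of -4.16 (SE 0.19, limma adjusted p = 6.2e-06) and -5.25 (SE 0.19, adjusted p = 7.6e-07). From P5 to P10, F2 and F5 were the 2 members that were lower past the threshold and 0 were higher, against 30.5% and 31% of all genes tested, with 2 members past an unadjusted p of 0.05, against 65.6%.

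Among the anticoagulants, antithrombin was lost, protein C was reduced to a level that then held, and thrombomodulin stayed. Serpinc1, antithrombin, was at 2.51, 0.924 and 1.44 FPKM at P0 and at 0.101 FPKM or less in the 6 later libraries, from 0 to 8 fragments each. It failed the filter, and over genes of all levels its log2 fold change was -1.32 (SE 0.19, limma adjusted p = 0.000692) at P10 against P0. Proc, protein C, was at 8.57, 19.5 and 11.2 FPKM at P0, at 2.10, 1.88 and 1.52 FPKM at P5 and at 2.11, 1.41 and 1.94 FPKM at P10. All 6 later libraries lay below the lowest P0 library, while those of P5 and P10 overlapped.
Mean Proc at P0 was 7.13-fold above P5 and 7.19-fold above P10, with log2 fold changes of -2.24 (SE 0.23, adjusted p = 3.6e-05) and -2.25 (SE 0.23, adjusted p = 1.4e-05). Between P5 and P10 its log2 fold change was -0.01 (SE 0.23, adjusted p = 0.970).

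Thbd, thrombomodulin, was at 0.209, 1.95 and 0.675 FPKM at P0, at 1.93, 1.94 and 1.91 FPKM at P5 and at 1.27, 1.31 and 1.36 FPKM at P10. The P0 libraries covered the range of both later passages, and all P10 libraries lay below those of P5, as for 4261 of the 11593 genes tested. It was higher at P5 than at P0 by a log2 fold change of 0.69 (SE 0.25, limma adjusted p = 0.0392), and the call was lost without the filter (adjusted p = 0.0994), with median-ratio scaling (0.0574), when only those groups were fitted (0.0823), without P0 replicate 1 (0.0987) or 3 (0.101), and without any 1 of the P5 libraries (0.0845 to 0.0884). At P10 against P0 the log2 fold change was 0.35 (SE 0.25, adjusted p = 0.233), and 0.70 (adjusted p = 0.00057) without P0 replicate 2. At P10 against P5 it was -0.34 (SE 0.25, adjusted p = 0.265), and the adjusted p was 0.000392 when only those groups were fitted.

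Plasminogen, Plg, spanned the widest range. Its FPKM was 89.9, 37.6 and 61.3 at P0, then 0.0865, 0.0952 and 0.0189 at P5, from 2 to 10 fragments, and 0 in all 3 P10 libraries. Mean P0 was 941-fold above P5 and at least 2179-fold above P10, and the log2 fold change on FPKM + 1 at P5, over genes of all levels, was -5.82 (SE 0.26, limma adjusted p = 5.4e-06). Without regard to the filter, 8 of the 10 members had every P5 library and every P10 library below every P0 library, against 17.7% and 24.4% of the 22670 genes above 0 in at least 1 library. F7 and F9, above 0 at P0 alone, could differ only in that direction.

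Markers of hepatocytes moved with the members that fell. The 8 markers summed to 5018 to 5914 FPKM in the P0 libraries, to 176 to 204 FPKM at P5 and to 75.4 to 81.0 FPKM at P10, and Alb went from 4994 ± 406 FPKM at P0 to 79.5 ± 12.4 at P5 and 0.584 ± 0.0579 at P10 (SD, n = 3). At P10, Asgr1 was at 0.00523 FPKM or less and Cps1 at 0 in all 3 libraries, while Hnf4a, a transcription factor of hepatocytes, was at 64.3 ± 10.6, 60.9 ± 2.33 and 56.4 ± 2.10 FPKM at P0, P5 and P10. In bulk libraries, fewer cells of a type and less RNA per cell cannot be told apart. The 8 cholangiocyte markers summed to 5461 to 6794, 3663 to 3867 and 3561 to 3612 FPKM at P0, P5 and P10. At P0, replicate 1 had the highest Plg, Serpinc1, F7, F9, F10, F5 and F2 and the lowest F3, Thbd and Proc, and its hepatocyte markers summed to 5914 FPKM, against 5018 in replicate 2 and 5819 in replicate 3. Endothelial markers, which bear on Thbd, summed to 0.655 to 1.67 FPKM at P0, 9.48 to 16.6 at P5 and 1.02 to 1.56 at P10, of which Tek gave a mean of 13.2 FPKM at P5 while the defining markers Pecam1, Cdh5, Kdr and Stab2 were each at a mean of 0.0542 FPKM or less at every passage. The 8 stellate and mesenchymal markers went the same way as the plasma factors, with sums of 60.8 to 75.7 FPKM at P0, 7.54 to 8.37 at P5 and 0.174 to 0.239 at P10, nearly all of it from Reln (mean 69.2, 7.36 and 0.0816 FPKM), while Col1a1 and Dcn were at a mean of 0.142 FPKM or less at every passage. The 8 macrophage markers summed to 43.1 to 48.8, 72.1 to 77.3 and 10.1 to 10.5 FPKM, mostly from Cd68 (mean 30.4, 74.5 and 9.53 FPKM), with Lyz2 at a mean of 13.2 FPKM at P0 and 0 later. The 5 mesothelial markers summed to 97.8 to 125, 540 to 609 and 522 to 530 FPKM, nearly all from Msln (mean 111, 574 and 527 FPKM). The 6 markers of platelets and megakaryocytes summed to 4.81 FPKM or less in every library. The part of these cell types in the results was not tested.

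Other genes of clotting were counted by role, from lists of 40 genes of which 31 were tested in Cho-Orgs. From P0 to P10, 12 were higher, 18 lower and 1 not past the threshold, with a median log2 fold change of -0.99 beside 0.07 over all genes tested, of which 41% were higher and 31.3% lower. The role counts below are to be read against these shares. Of the 18 lower genes, 10 passed the filter only with the P0 libraries counted and so had to be lower. Over genes of all levels, 12 of 39 were higher and 22 lower, against 23.7% and 20.7% of 22670 genes. The substrate of thrombin went with the plasma factors: of 5 genes of fibrin formation 3 were tested and all 3 were lower, Fgb, the fibrinogen beta chain, going from 1240 ± 168 FPKM at P0 to 34.1 ± 8.86 at P5 and 2.93 ± 0.169 at P10 (SD, n = 3; log2 fold change at P10 against P0 -8.30, limma adjusted p = 5.4e-10). Fgg, the gamma chain, went from 468 ± 75.2 to 0.352 ± 0.122 FPKM (-8.43, adjusted p = 9.7e-10).
Of 7 contact and intrinsic factors with their carrier, 4 were tested and all 4 were lower at P10. Among them, F12, Kng1 and Kng2 were tested through the P0 libraries alone, and Vwf through the P5 libraries alone. Kng1, kininogen, went from 47.0 ± 16.0 to 0.0267 ± 0.0310 FPKM (log2 fold change -5.49, limma adjusted p = 9.9e-07 over genes of all levels), and Kng2, its paralog with which it can share reads, from 36.6 ± 12.7 to 0.105 ± 0.0618 FPKM (-5.04, adjusted p = 1.2e-06 likewise).

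Inhibitors and cofactors fell with 1 exception. Of the 6 tested among 8, 5 were lower at P10 and 1 was higher, and of the 5, Serpind1, Serpina10, Pros1 and Proz needed the P0 libraries to be tested. Serpind1, heparin cofactor II, was at 17.3 ± 7.02 FPKM at P0 and 0 in the P10 libraries (log2 fold change -4.11, limma adjusted p = 1.1e-05 over genes of all levels), and Serpina10, an inhibitor that works with protein Z, at 13.9 ± 7.61 FPKM and 0 (-3.78, adjusted p = 3.6e-05 likewise). Tfpi, the inhibitor of the tissue factor complex, was the gene that rose, from 3.02 ± 1.46 to 8.71 ± 0.473 FPKM (1.35, adjusted p = 0.000521). Procr, the endothelial protein C receptor, was at 6.47 ± 2.95 FPKM at P0, 10.6 ± 1.06 at P5 and 2.61 ± 0.471 at P10, higher at P5 than at P0 (0.70, adjusted p = 0.0223) and lower at P10 than at P5 (-1.69, adjusted p = 0.000134).

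Genes of fibrinolysis went both ways: of 11 tested, 4 were higher, 6 lower and 1 not past the threshold at P10, with Serpinf2, Cpb2 and Hrg tested only through the P0 libraries. Plat and Plaur, on the activators' side, rose. Plat, tissue plasminogen activator, went from 20.3 ± 6.62 FPKM at P0 to 32.9 ± 0.772 at P5 and 87.6 ± 2.37 at P10 (log2 fold change at P10 2.10, limma adjusted p = 1.8e-06), and Plaur, the urokinase receptor, from 36.7 ± 4.19 to 98.2 ± 8.13 and 183 ± 4.21 FPKM (2.30, adjusted p = 1.4e-08). Serpinf2, the plasmin inhibitor, fell from 27.0 ± 11.4 to 0.00406 ± 0.00703 FPKM (-4.72, adjusted p = 5.2e-06 over genes of all levels), and Serpine2, a protease inhibitor with thrombin among its targets, from 66.4 ± 16.5 to 2.13 ± 0.229 FPKM (-4.40, adjusted p = 8.4e-09). Anxa2, a surface receptor of plasminogen, was the most abundant at 875 ± 17.1, 973 ± 30.9 and 814 ± 6.04 FPKM, with a log2 fold change of -0.10 at P10 against P0 (adjusted p = 0.0502).
All 5 genes of the vitamin K cycle and of factor secretion were higher at P10, beside 41% of all genes tested. Vkorc1, which recycles vitamin K, went from 39.8 ± 0.653 to 63.6 ± 5.12 FPKM (0.66, adjusted p = 4.8e-06), Ggcx, the carboxylase of the vitamin K-dependent factors, from 6.86 ± 0.258 to 10.98 ± 0.255 FPKM (0.61, adjusted p = 2.5e-05), and Lman1, a cargo receptor of factors V and VIII, from 52.8 ± 3.46 to 61.3 ± 0.560 FPKM (0.21, adjusted p = 0.00465). Both receptors tested among 4 were higher as well, F2rl1, a receptor cut by trypsin-like proteases, from 19.8 ± 1.04 to 62.8 ± 0.576 FPKM (1.62, adjusted p = 7.9e-09) and F2r, the thrombin receptor, from 1.74 ± 0.826 to 5.62 ± 0.0991 FPKM (1.32, adjusted p = 8.3e-05).

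**Figure D2:**
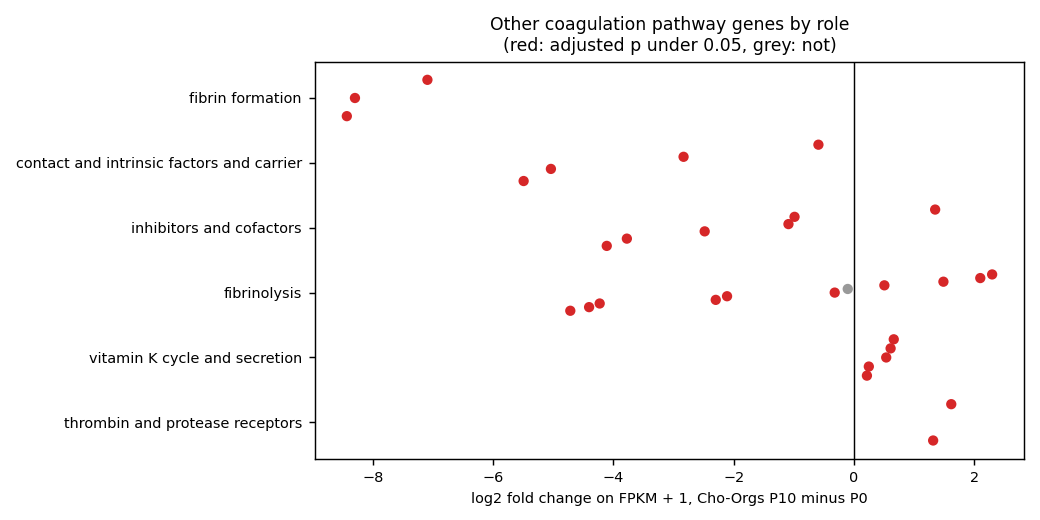
Log2 fold changes on FPKM + 1 (horizontal axis, Cho-Orgs P10 minus P0) of the 31 other clotting genes tested, in rows by role, red where the limma adjusted p was under 0.05 and grey where it was not. All 3 fibrin genes lie below -7, and all 5 genes of the vitamin K cycle and secretion lie above 0.

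In the hepatocyte table F3 and Proc were the 2 members that passed the filter, and no member differed between groups past the threshold. Limma called 0 members in each of the 7 comparisons, against 0.0273% of 10986 genes for P10 against P5, 0.0091% for P1 and for P5 against Pri-Hep and 0% for the other 4, and the count was also 0 with limma-voom on the recovered fragments. At an unadjusted p under 0.05 the count was 1 in each of the comparisons of P10 with Pri-Hep, P1 and P5, F3 each time and against 6.64%, 8.98% and 11.5% of genes, and 0 in the other 4. Plasma factors were low throughout, with mean F2 at 0.606 to 0.669 FPKM and mean Plg at 0.277 to 0.445 FPKM in the 4 groups. F7 had at most 3 fragments in all 12 libraries, F10 in 10, Thbd in 8, and F9 and Serpinc1 in 5 each, levels at which few differences are detectable. Below the filter, Thbd was at 0.0709 ± 0.00976 FPKM at P1 (4 to 8 fragments) and 0.0119 ± 0.0104 at P10 (0 to 1 fragments), with every P1 library above every P10 library, and Plg at 0.445 ± 0.0392 FPKM in Pri-Hep and 0.277 ± 0.0738 at P5, also without overlap (SD, n = 3). Over genes of all levels neither difference passed the threshold, with limma adjusted p = 0.462 (unadjusted 0.00507) for Thbd and 0.483 (unadjusted 0.0153) for Plg. Among the 20509 genes above 0 in at least 1 library, 1243 lay wholly lower at P10 than at P1. At P5, 1207 lay wholly lower than in Pri-Hep. Thbd at P5 also lay below P1, as did 917 of these genes, and Serpinc1 at P1 above Pri-Hep, as did 1101. These differences missed the threshold as well.

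F3 was at 18.0, 17.9 and 17.4 FPKM in the Pri-Hep libraries and at 17.7, 16.9 and 18.2 FPKM in the P1 libraries. It was at 16.5, 16.2 and 17.9 FPKM at P5 and at 20.7, 18.7 and 19.3 FPKM at P10, where every library lay above every library of the other 3 groups. Among the 10986 genes tested, P10 lay wholly above Pri-Hep for 598, above P1 for 921 and above P5 for 936. F3 at P10 was higher than at P5 by a log2 fold change on FPKM + 1 of 0.20 (SE 0.04, limma unadjusted p = 0.000557, adjusted p = 0.149), than at P1 by 0.14 (SE 0.04, adjusted p = 0.354) and than in Pri-Hep by 0.13 (SE 0.04, adjusted p = 0.686). Over all 9 Hep-Orgs libraries against Pri-Hep the log2 fold change was 0.01 (SE 0.04, adjusted p = 0.939).
Proc was at 4.30, 3.02 and 2.63 FPKM in Pri-Hep, at 3.59, 3.57 and 3.31 at P1, at 3.57, 2.60 and 3.38 at P5 and at 3.23, 3.02 and 2.94 at P10. The P10 libraries lay below those of P1, as for 869 of the 10986 genes tested, and the other groups overlapped. Its log2 fold change was -0.14 (SE 0.12, limma adjusted p = 0.749) at P10 against P1, and -0.01 (SE 0.10, adjusted p = 0.986) over all Hep-Orgs against Pri-Hep.

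**Figure D3:**
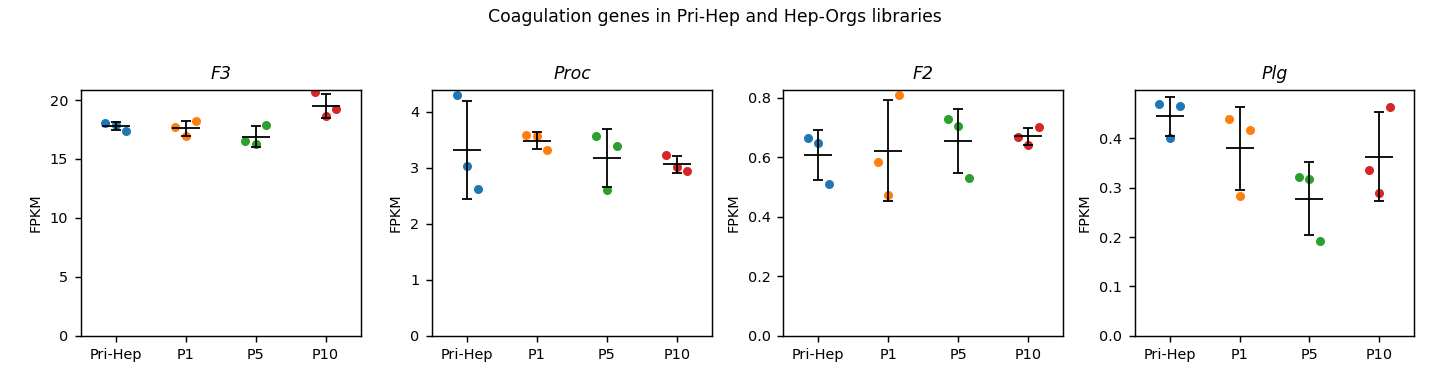
FPKM (vertical axes, from 0) of F3, Proc, F2 and Plg in the 3 libraries of Pri-Hep and of Hep-Orgs at P1, P5 and P10 (points, replicates 1 to 3), with mean and SD. F3 was between 16.2 and 20.7 FPKM in all 12 libraries, and F2 and Plg were below 1 FPKM in each.

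Among the other 40 clotting genes, 20 were tested in the hepatocyte table and 0 passed the limma threshold in any of the 7 comparisons. Fga, the fibrinogen alpha chain, was the most abundant of them, at 284 ± 3.41 FPKM in the Pri-Hep libraries (SD, n = 3).

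The Smart-Seq libraries differed by organoid shape, with 1 library each, so the values below have no replicate check and no test. Of the 10 members, 9 were at least 2-fold higher in the grape-like than in the round-like library on the scale of FPKM + 1, against 12.9% of the 12595 genes compared, and F3 was at least 2-fold lower, against 8.82%. In the intermediate library 8 were at least 2-fold higher than in the round-like one, against 3.85% of genes, and 0 were lower, against 2.54%. F7, F9, F10, F5 and Serpinc1 were under 1 FPKM in the round-like library and entered the comparison through the others. The median log2 ratio of the members on that scale was 1.79 for grape-like and 1.75 for intermediate against round-like, beside -0.13 and -0.12 over all genes compared. All intervals below are exact 95% intervals of the log2 ratio of FPKM without a pseudocount and cover counting error only.

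Tissue factor again stood apart. F3 was at 1.28 FPKM in the grape-like, 8.37 in the intermediate and 4.56 in the round-like library, so that it was highest in the intermediate and lowest in the grape-like one. The log2 ratio was -1.84 (interval -2.18 to -1.51) for grape-like and 0.87 (0.68 to 1.07) for intermediate against round-like. F7 was at 3.13, 3.52 and 0.417 FPKM in the same order, 7.50-fold and 8.43-fold above the round-like library, and its grape-like and intermediate values did not differ beyond counting error (log2 ratio -0.17, interval -0.43 to 0.09).

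Of the factors that make thrombin, F9 was at 1.26, 2.71 and 0.120 FPKM in the libraries from grape-like, intermediate and round-like organoids, from 14 fragments in the last. F10 was at 11.1, 8.45 and 0.968 FPKM and F5 at 4.56, 4.12 and 0.494 FPKM. F2 was at 37.2, 48.2 and 6.02 FPKM. All 4 were lowest in the round-like library, by 6.17-fold (F2) to 11.5-fold (F10) against the grape-like one, and by 8.002-fold (F2) to 22.5-fold (F9) against the intermediate one. On the FPKM + 1 scale none of the 4 differed by 2-fold between the grape-like and intermediate libraries.

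The anticoagulants did not share an order. Serpinc1 was at 4.64, 2.98 and 0.678 FPKM in the libraries from grape-like, intermediate and round-like organoids, and Proc at 12.01, 31.6 and 2.65 FPKM. Proc was thus highest in the intermediate library, with a log2 ratio of -1.40 (interval -1.50 to -1.29) for grape-like against intermediate. Thbd was at 5.19, 1.05 and 1.98 FPKM, highest in the grape-like and lowest in the intermediate library, with a log2 ratio of 1.39 (1.20 to 1.59) for grape-like and -0.92 (-1.21 to -0.63) for intermediate against round-like. Plg was at 79.1, 157 and 11.8 FPKM, 6.72-fold and 13.4-fold above the round-like library. Between the grape-like and intermediate libraries 1 member, Thbd, was at least 2-fold higher and 2, F3 and Proc, were at least 2-fold lower in the grape-like one, against 9.71% and 7.15% of genes.

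**Figure D4:**
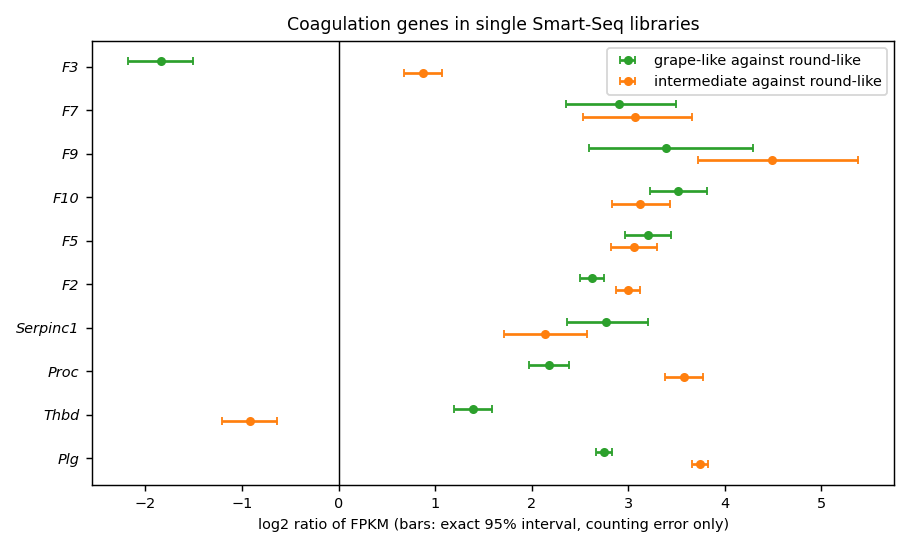
Log2 ratio of FPKM (horizontal axis, without a pseudocount) of the 10 genes in the grape-like library (green) and the intermediate library (orange), each against the round-like library, with exact 95% intervals for counting error only. F3 lies at -1.84 for grape-like and Thbd at -0.92 for intermediate, and the other points are above 0.

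Markers of several cell types moved with these ratios. The 8 hepatocyte markers summed to 4466, 7042 and 1138 FPKM in the libraries from grape-like, intermediate and round-like organoids. That was the order seen for F2, F9, Proc and Plg. F7 had it by value, but its grape-like and intermediate values did not differ beyond counting error. The 8 cholangiocyte markers summed to 853, 3426 and 2904 FPKM, the order seen for F3. The endothelial markers, all 8 at 1 FPKM or more in the grape-like library, summed to 75.7, 31.7 and 13.2 FPKM, the macrophage markers to 8787, 2560 and 1377 FPKM and the stellate and mesenchymal markers to 1362, 351 and 303 FPKM. Their falling order from grape-like to round-like was the one seen for F10, F5 and Serpinc1, which did not share the order of the hepatocyte markers. The endothelial genes Stab2 and Kdr were at 18.6 and 13.04 FPKM in the grape-like library, where Thbd was highest, at 6.80 and 4.97 FPKM in the intermediate one, where Thbd was lowest, and at 2.85 and 1.95 FPKM in the round-like one. From the intermediate to the round-like library Thbd and the endothelial sum thus went in opposite directions. The part of these cells in the members' levels was not tested.

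Of the other 40 clotting genes, 32 entered the Smart-Seq comparison, and 20 were at least 2-fold higher and 3 at least 2-fold lower in the grape-like than in the round-like library, against 12.9% and 8.82% of all genes compared. In the intermediate against the round-like library, 11 were higher and 0 lower, against 3.85% and 2.54%, with a median log2 ratio of 0.40 on FPKM + 1. The role counts that follow are for the grape-like against the round-like library. All 4 genes of fibrin formation compared were higher. Fgb was at 620, 1474 and 132 FPKM in the libraries from grape-like, intermediate and round-like organoids. Fgg was at 221, 483 and 32.9 FPKM and Fga at 286, 759 and 56.1 FPKM. All 4 contact factors compared were higher too, with Kng1 at 65.1, 89.0 and 6.51 FPKM and F12, factor XII, at 5.53, 7.63 and 0.768 FPKM. So were all 7 inhibitors and cofactors compared, such as Serpina10 at 58.5, 138 and 14.6 FPKM, Serpind1 at 45.4, 57.4 and 4.68 FPKM and Proz, protein Z, at 7.21, 9.01 and 0.583 FPKM.
In fibrinolysis 4 of 10 were at least 2-fold higher and 2 lower in the grape-like than in the round-like library. Serpinf2 was at 69.9, 77.3 and 7.33 FPKM and Cpb2, which makes fibrin resist plasmin, at 9.10, 3.62 and 0.588 FPKM, whereas Plaur was at 10.3, 25.6 and 37.0 FPKM and S100a10, the partner of annexin A2, at 97.6, 139 and 202 FPKM. Of the receptors, F2r was at 14.1, 3.57 and 4.08 FPKM and F2rl1 at 2.26, 9.47 and 13.6 FPKM. None of the 5 genes of the vitamin K cycle and secretion differed by 2-fold on the FPKM + 1 scale, with Mcfd2, the partner of Lman1, at 67.2, 73.6 and 57.1 FPKM.

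Set side by side, with no test across tables that were normalized separately, Cho-Orgs at P0 and the grape-like and intermediate Hep-Orgs held F2 and Plg at 37.2 FPKM or more (group mean or single library), while the Hep-Orgs of the hepatocyte table held both under 1 FPKM and Cho-Orgs at P10 under 0.11 FPKM. F3 was at a mean of 78.5 to 94.8 FPKM in Cho-Orgs, 16.9 to 19.5 FPKM in the groups of the hepatocyte table and 1.28 to 8.37 FPKM in the Smart-Seq libraries. The shape-picked organoids came from the initial hepatocyte medium, and the passaged Hep-Orgs from the medium with DAPT and dexamethasone. Passage and library preparation differed between them too, and the part of each was not tested. The gene lengths behind the values also differed, those outside the hepatocyte table being inferred from the values. They were 8546 bases for Serpinc1 and 4594 for F2 in the hepatocyte table against 2088 and 2493 in the others. For F3 they were 2527 against 1876. This lowers the FPKM of these genes in the hepatocyte table for the same number of fragments. Proc, at 1566 against 2213 bases, went the other way, as to a smaller degree did F5 (7430 against 8134) and F9 (2734 against 2884).

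**Figure D5:**
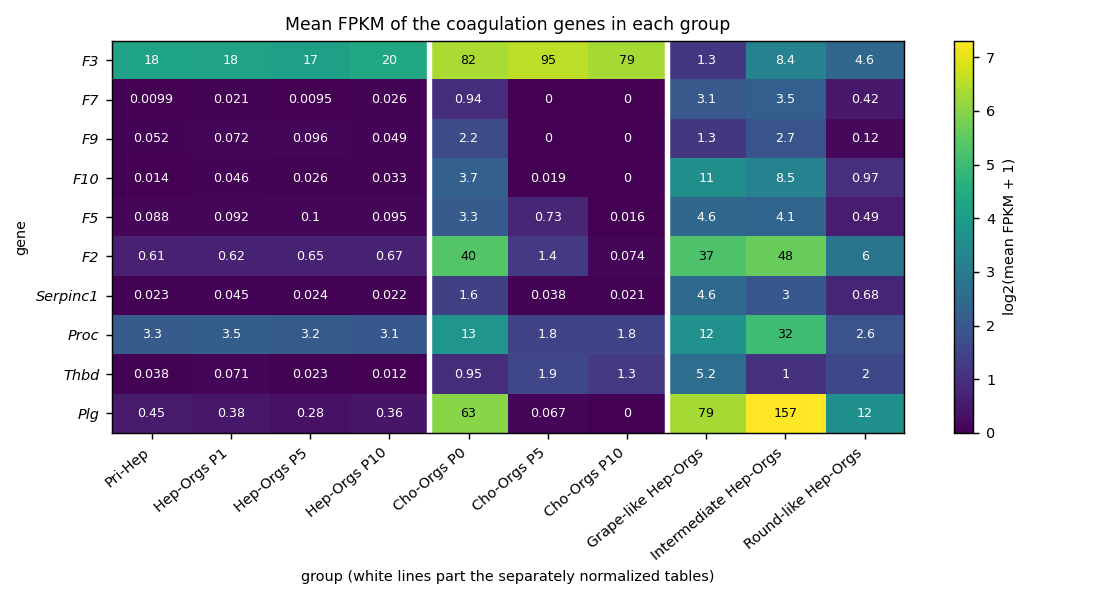
Mean FPKM (numbers in the cells; colour, log2 of mean FPKM + 1) of the 10 genes (rows) in the 10 groups (columns), with white lines between the separately normalized tables; the Smart-Seq columns are single libraries. F3 is the highest row in the hepatocyte table and in Cho-Orgs, and Plg the highest in the Smart-Seq libraries.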

How the data were processed

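Poly(A) RNA of 21 bulk libraries and amplified cDNA of 3 Smart-Seq libraries were sequenced. The authors deposited FPKM per gene in 3 tables, normalized separately. The submitters' processing notes name featureCounts 2.0.3, edgeR 3.40.2 and mm10, while the aligner and annotation are not given in the sources used here. Fragment numbers of the hepatocyte table were recovered from the value steps and listed gene lengths, and 100% of its values came out whole within 0.05 fragments. The other tables list no lengths. Their depths were fitted on 6062 and 1422 low genes chosen for values in whole steps, so the share of at least 99.5% whole among these genes is no check. Member lengths there were inferred as the smallest that gave whole fragments in all libraries.

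With R 4.3.3 and limma 3.58.1, log2(FPKM + 1) of genes that reached 1 FPKM in 3 or more libraries was fitted over all groups of a table (lmFit, eBayes with trend, two-sided, Benjamini-Hochberg, threshold 0.05). Smart-Seq libraries were compared by ratio for genes that reached 1 FPKM in at least 1 library, with Clopper-Pearson intervals (scipy 1.17.1). A level of 3 fragments per library was the floor. Intervals and floors cover counting error only. Scripts were tested on simulated data.

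The members and lists were chosen with earlier results of these data known. Named genes were all members and, per role, the most abundant gene and up to 2 per direction with the largest changes in Cho-Orgs P10 against P0, or in grape-like against round-like Hep-Orgs. Fga in Pri-Hep and Procr at P5 were named after their values were seen. An item of the lists is not reported here. Same-numbered libraries did not deviate together (median correlation -0.0063 over 9 Cho-Orgs pairs and -0.0016 over 18 pairs of the hepatocyte table), and a fit with the number as a block was an alternative. Same-group libraries of the hepatocyte table differed beyond counting noise (chi-square per degree of freedom at least 1.95), so none was counted as a duplicate. The median was 2.24 (up to 3.20) over same-group pairs and 2.57 (1.83 to 4.65) over pairs from different groups, so that the ranges overlapped widely. This measure cannot tell repeat libraries of the same culture from separate cultures, and it was not taken for the Cho-Orgs libraries. Alternatives were another pseudocount, filters, scalings, variance models, a replicate block and leaving out each library.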

Additional observations from a re-analysis of the deposited data

Results flagged for a closer look

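F3 moved in opposite ways from P5 to P10 in the Hep-Orgs and the Cho-Orgs. Its log2 fold change was 0.20 in Hep-Orgs, where every P10 library was above every P5 library, and -0.27 in Cho-Orgs, where every P10 library was below every P5 library. Neither passed the adjusted threshold when all groups of a table were fitted, and the difference between the organoid types was not tested, since the tables were normalized separately. Such gaps were common. From P5 to P10, 936 of 10986 genes tested in the hepatocyte table lay wholly higher. In Cho-Orgs, 4261 of 11593 genes lay wholly lower.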

How the results depend on the processing

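Of 164 counts of members under alternatives, 157 were within 1.5 times the main count. With a mean FPKM of at least 5 as filter, fewer genes were tested, and members called were 3 at P5 and 3 at P10 against Cho-Orgs P0 and 1 at P10 against P5, while members past 2-fold were 4 for grape-like and 4 for intermediate against round-like and 1 for grape-like against intermediate. With only the groups compared, 4 members were called at Cho-Orgs P10 against P5. Leaving out a library gave 6 to 7 members for both comparisons with Cho-Orgs P0.

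Of 537 single-gene values with a test, 507 kept direction and side of the threshold, 8 lost and 5 gained a call, and 17 changed sign, none of these past the threshold. The sign changes were F3 at Cho-Orgs P10 against P0 (0.0065 with TPM, -0.25 to 0.17 leaving out a library), Proc over all Hep-Orgs against Pri-Hep (0.0084 with limma-voom, -0.13 to 0.15), and, leaving out a library, F3 over all Hep-Orgs (-0.00096 to 0.025) and at P1 (-0.037 to 0.012) against Pri-Hep, Proc at P1 (-0.043 to 0.23), P5 (-0.15 to 0.12) and P10 (-0.19 to 0.087) against Pri-Hep, Proc at Hep-Orgs P10 against P5 (-0.14 to 0.032) and Proc at Cho-Orgs P10 against P5 (-0.094 to 0.10). Their cause was not tested.

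The replicate block gave 7, 6 and 2 members called for Cho-Orgs P5 against P0, P10 against P0 and P10 against P5, the numbers without it, and 0 in the hepatocyte table, and no member's call changed with it. With median-ratio scaling, 3087 genes were higher and 3449 lower at Cho-Orgs P5 against P0, where the main fit had 3938 and 2621. In the Smart-Seq ratios, 28 of 102 values moved by more than their counting interval, 22 of them with the smaller pseudocount. Depth limits F7, F9, F10, Thbd and Serpinc1 in the hepatocyte table.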

Other observations

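Vwf, the carrier of factor VIII and a gene best known from endothelium and platelets, was high at P5 alone in Cho-Orgs, which was noticed after its values were seen. Its level was 0.608 ± 0.137 FPKM at P0, 5.74 ± 0.869 at P5 and 0.0643 ± 0.0211 at P10 (SD, n = 3), with limma log2 fold changes of 2.06 at P5 against P0 (adjusted p = 3.1e-07) and -2.65 at P10 against P5 (adjusted p = 9.1e-08). Vwf reached 1 FPKM in the P5 libraries alone and was tested only through them. It thus had to differ from P5, and these calls are no support. Tek, another gene of endothelium, took the same course, with means of 0.842, 13.2 and 0.878 FPKM, while Cdh5 had means of 0.0063, 0.0542 and 0 FPKM.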
